A study of Homo sapiens with 8 samples.

Results

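The genes described here are 34 aminoacyl-tRNA synthetase genes, of 58735 genes in the deposited count files. They were chosen by symbol, as named in GENCODE release 29, as members of 1 enzyme family, with earlier results of these data known. Of the 34, 19 encode the cytosolic enzymes, and 15 encode the mitochondrial enzymes, whose symbols end in 2. The cells are MOLM-13, a human acute myeloid leukemia line. The groups used here are MOLM-13 parental cells, which had no treatment course, and MOLM-13 cells carried through 1, 3 or 5 courses of DMSO, the solvent in which busulfan was dissolved, at 1%. For each of these 4 states 1 bulk RNA library was used, so no value below has an SD. The DMSO cultures served as vehicle controls in a study of busulfan resistance. The labels give no passage number for them, so passage and course cannot be told apart. The 3 busulfan libraries and the other parental library were not analysed here.

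Each synthetase joins 1 amino acid to its tRNAs, and the charged tRNA then brings that amino acid to the ribosome. The cytosol and the mitochondrion are charged by separate enzymes for most amino acids, and all of them are encoded in the nucleus. The exceptions among the listed genes are GARS and KARS, each of which makes the glycyl or lysyl enzyme of both compartments. EPRS is a fused enzyme for glutamate and proline. The mitochondrion has no glutaminyl enzyme of its own, and EARS2 charges glutamate onto the glutamine tRNA, which an amidotransferase (GATB, GATC, QRSL1) then converts. A group of cytosolic enzymes sits in a multisynthetase complex on the scaffold proteins AIMP1, AIMP2 and EEF1E1. When tRNAs lack their amino acids, the kinase GCN2 phosphorylates the initiation factor eIF2, translation of the transcription factor ATF4 rises, and ATF4 binds C/EBP-ATF response elements. Many cytosolic synthetase genes are known ATF4 targets.

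The core of the C/EBP-ATF response element, TGATGNAA, was searched on both strands of RefSeq promoters (GRCh38.p14), from 250 bases before to 50 bases after each gene's start. Of the 34 genes, 30 were in the promoter table, and DARS, LARS, YARS and AARS2 were not. The core was present in 7 of 16 cytosolic promoters (43.8%) and in 1 of 14 mitochondrial ones (7.14%). Over all 27305 genes of the table the share was 4.46%. The narrower form TGATGCAA, each match of which is also a match of the core, was found in 6 cytosolic promoters (37.5%), in 0 mitochondrial ones and in 1.08% of all genes. The 8 stretches are shown because the cytosolic set differs from the mitochondrial set in this element. Each line is the gene's own strand, with the match in capitals. A match that reads TTGCATCA or TTTCATCA is the core on the opposite strand.
AARS, chr16:70289678-70289713 (minus strand): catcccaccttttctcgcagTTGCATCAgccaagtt
CARS, chr11:3057410-3057445 (minus strand): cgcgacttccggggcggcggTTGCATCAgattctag
GARS, chr7:30594825-30594860 (plus strand): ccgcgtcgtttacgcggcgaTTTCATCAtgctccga
IARS, chr9:92293695-92293730 (minus strand): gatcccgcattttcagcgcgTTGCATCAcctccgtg
MARS, chr12:57488044-57488079 (plus strand): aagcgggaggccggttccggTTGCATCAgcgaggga
NARS, chr18:57621807-57621842 (minus strand): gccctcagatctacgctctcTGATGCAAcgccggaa
TARS, chr5:33440947-33440982 (plus strand): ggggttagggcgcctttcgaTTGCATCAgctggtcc
YARS2, chr12:32756079-32756114 (minus strand): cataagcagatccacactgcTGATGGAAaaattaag
In these 8 promoters the match lies within 33 bases before to 15 bases after the annotated start in CARS, GARS, IARS, MARS, NARS and TARS. It lies farther upstream in AARS, at position -187, and in YARS2, at position -197. A match is a description of the letters and not evidence of binding.

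The libraries held 44795976 to 56825811 counts in genes. Of the 34 genes, 33 passed the filter on low counts. CARS, the cysteinyl enzyme, had 4, 0, 2 and 4 counts in parental cells and DMSO courses 1, 3 and 5, which is at or near the floor of 3 counts, and no change can be read from it. No annotated gene overlaps its exons on the same strand, and why its counts are so low was not tested. The other 18 cytosolic genes had between 1407 and 34296 counts in a library, and the 15 mitochondrial genes had between 240 and 8430. The myeloid markers CD33, MPO, SPI1, FLT3, CEBPA and LYZ lay between 189 and 932 CPM (counts scaled to a common library size) in every library. The 15 markers of T, B, erythroid, epithelial and fibroblast cells reached at most 4.11 CPM, and 6 of them were at 0 in every library. The highest of these 15 were CD3D and COL1A1, both in parental cells, and their part in the results was not tested.

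The cytosolic set varied more between libraries than the mitochondrial set. The summed level of the cytosolic set was 3527 CPM in parental cells, 2146 CPM in course 1, 4529 CPM in course 3 and 5985 CPM in course 5. Its highest library was thus 2.79 times its lowest. The mitochondrial set summed to 662, 598, 640 and 653 CPM in the same order, a span of 1.11 times. The median cytosolic gene differed 3.01-fold between its highest and lowest library, with a range of 1.15-fold to 10.8-fold, and 12 of 18 genes differed at least 2-fold. The median mitochondrial gene differed 1.38-fold, with a range of 1.05-fold to 3.40-fold, and 1 of 15, MARS2, differed at least 2-fold. These spreads were not computed over all genes, so they compare the sets with each other only. In bulk RNA, fewer cells with a transcript and less of it per cell cannot be told apart.

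Course 1 was the lowest library for 15 of 18 cytosolic genes, for 9 of 15 mitochondrial genes and for 32.6% of the 18612 genes tested. Course 5 was the highest for 14 of 18 cytosolic genes, 6 of 15 mitochondrial genes and 30.4% of all genes. The full order of course 1, then parental, then course 3, then course 5 was shared by 13 of 18 cytosolic genes, against 4 of 15 mitochondrial genes and 11.9% of all genes.

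**Figure D1:**
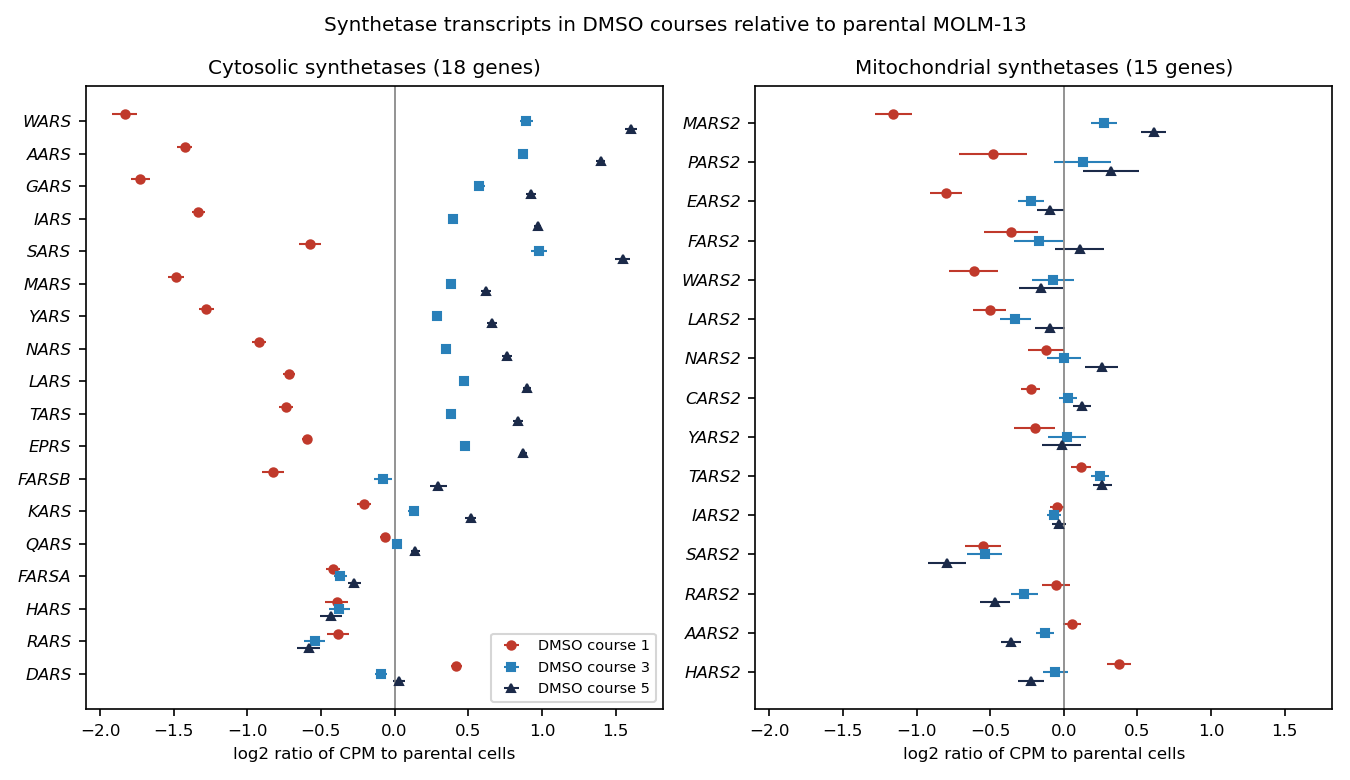
Log2 ratio of CPM to parental cells for each synthetase gene in DMSO courses 1, 3 and 5 (1 library each), with bars for the 95% counting interval. Left, 18 cytosolic genes, and right, 15 mitochondrial genes, each ordered by the ratio of course 5 to course 1. Course 1 lies left of the parental line for 17 of 18 cytosolic genes, and course 5 lies right of it for 15 of 18.

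WARS, the tryptophanyl enzyme, known to be induced by interferon, showed the widest swing of all 33 genes. It stood at 116 CPM in parental cells, 32.7 CPM in course 1, 216 CPM in course 3 and 353 CPM in course 5. The log2 ratio of course 5 to course 1 was 3.43 (95% counting interval 3.36 to 3.51), a 10.8-fold difference. AARS, the alanyl enzyme, stood at 242, 90.1, 444 and 638 CPM in the same order. Both genes were below the parental level in course 1 and above it in courses 3 and 5. GARS, the glycyl enzyme of both compartments, had 180 CPM in parental cells, 54.3 CPM in course 1, 268 CPM in course 3 and 341 CPM in course 5. IARS, the isoleucyl enzyme, had 329, 131, 433 and 645 CPM. MARS, the methionyl enzyme, had 232, 82.9, 302 and 356 CPM. In these 3 genes, as in WARS and AARS, course 1 was the lowest library by a wide margin. In all of them courses 3 and 5 passed the parental level by less, on the log2 scale, than course 1 fell short of it. For AARS the values were close, at 1.40 in course 5 and -1.43 in course 1. SARS, the seryl enzyme, which also charges the selenocysteine tRNA with serine, had 77.2 CPM in parental cells, 51.8 CPM in course 1, 152 CPM in course 3 and 226 CPM in course 5. SARS was less reduced in course 1 than the other 5 (log2 ratio to parental -0.58, counting interval -0.65 to -0.50). Its log2 ratio to parental in course 5 was 1.55, next to 1.60 for WARS.

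The remaining enzymes that moved with this group were YARS, NARS, LARS, TARS, EPRS and FARSB. Their log2 ratios of course 5 to course 1 lay between 1.12 for FARSB, the beta subunit of the phenylalanyl enzyme, and 1.94 for YARS, the tyrosyl enzyme.

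Other cytosolic genes moved less or in another order. FARSA, the catalytic alpha subunit that pairs with FARSB, had 177 CPM in parental cells and 132, 137 and 146 CPM in courses 1, 3 and 5. The 2 subunits of this enzyme thus differed: all 3 DMSO libraries lay below parental for FARSA, and course 5 lay above it for FARSB, at 101 CPM against 82.5 CPM. HARS, the histidyl enzyme, had 68.0 CPM in parental cells and 51.7, 52.3 and 50.3 CPM in courses 1, 3 and 5. RARS, the arginyl enzyme, had 68.3 CPM in parental cells and 52.4, 46.9 and 45.6 CPM in courses 1, 3 and 5. For both, the 3 DMSO libraries lay close together and all below the parental library. KARS, the lysyl enzyme of both compartments, had 173 CPM in parental cells and 150, 189 and 247 CPM in courses 1, 3 and 5, the order of the larger group over a narrower span. DARS, the aspartyl enzyme, singled out after its values were seen, was the 1 cytosolic gene whose highest library was course 1. It had 183, 245, 172 and 187 CPM from parental cells to course 5.

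MARS2, the mitochondrial methionyl enzyme, was the 1 mitochondrial gene that moved as widely as the cytosolic ones. It had 34.9 CPM in parental cells, 15.6 CPM in course 1, 42.1 CPM in course 3 and 53.2 CPM in course 5. EARS2, the mitochondrial glutamyl enzyme, had 39.2, 22.5, 33.6 and 36.8 CPM in the same order, with every DMSO library below the parental one and courses 3 and 5 close to it. PARS2, the mitochondrial prolyl enzyme and the gene with the fewest counts of the set, had 7.77 CPM in parental cells and 5.57, 8.50 and 9.72 CPM in courses 1, 3 and 5. FARS2, which charges mitochondrial phenylalanine tRNA, had 11.3, 8.84, 10.1 and 12.2 CPM. WARS2, the mitochondrial tryptophanyl enzyme, had 15.3, 10.0, 14.5 and 13.8 CPM. These 5 genes are among the 9 mitochondrial genes with their low in course 1.

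Other mitochondrial genes moved little, or were highest in course 1. IARS2, the mitochondrial isoleucyl enzyme and the gene with the most counts of the set, had 142 CPM in parental cells and 138, 136 and 139 CPM in courses 1, 3 and 5. TARS2, the mitochondrial threonyl enzyme, had 68.4, 74.2, 81.0 and 81.9 CPM, and YARS2, the mitochondrial tyrosyl enzyme, had 18.5, 16.1, 18.7 and 18.3 CPM. HARS2, the mitochondrial histidyl enzyme, had 41.8 CPM in parental cells and 54.2, 40.2 and 35.9 CPM in courses 1, 3 and 5, so course 1 was its highest library. The remaining 6 genes (AARS2, CARS2, LARS2, NARS2, RARS2 and SARS2) had log2 ratios of course 5 to course 1 between -0.41 and 0.41. LARS2, the mitochondrial leucyl enzyme, had 31.9 CPM in parental cells and 22.5, 25.4 and 29.9 CPM in courses 1, 3 and 5, with its low in course 1. SARS2, the mitochondrial seryl enzyme, had 27.3 CPM in parental cells and 18.7, 18.8 and 15.8 CPM in courses 1, 3 and 5, all below parental. It shares 46.2% of its exon length with AC011455.2 on the same strand, to which 0 reads were assigned, so its count is uncertain.

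Single libraries were compared with the parental library by counting as apart each gene with a CPM ratio of 1.5-fold or more, a counting interval that excludes 1 and an average over the libraries of 5 CPM or more. The comparisons of courses 1, 3 and 5 share the parental library. In course 1, 11 of 18 cytosolic and 3 of 15 mitochondrial genes were lower and none was higher, and in this comparison 14.1% of the 10710 genes at this level were lower and 12.5% higher. In course 3, 3 cytosolic genes (AARS, SARS and WARS) and 0 mitochondrial genes were higher, against 6.49% of all genes, and 0 synthetase genes were lower, against 6.57%. In course 5, 11 cytosolic genes and 1 mitochondrial gene, MARS2, were higher, against 11.1% of all genes, and 1 mitochondrial gene, SARS2, was lower, against 12.2%. The cytosolic share thus exceeded the background in the lower direction in course 1 and in the higher direction in courses 3 and 5. The mitochondrial share was also above it in the lower direction in course 1, with 3 of 15 genes, and did not exceed it in courses 3 and 5. The cytosolic median log2 ratio to parental cells was -0.73 for course 1, 0.36 for course 3 and 0.71 for course 5. The mitochondrial median was -0.22, -0.07 and -0.03, and the median of all genes tested lay within 0.02 of 0 in each. These ratios have no replicate check, and the intervals cover counting error only.

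The medians of the sets lay farther apart against course 1 than against parental cells, and nearest to each other in course 5 against course 3. Course 5 against course 1 had 13 cytosolic and 3 mitochondrial genes higher, against 19.3% of all genes, and 0 cytosolic and 1 mitochondrial gene lower, against 18.7%. Course 3 against course 1 had 12 cytosolic and 2 mitochondrial genes higher, against 13.2% of all genes, and none lower, against 12.7%. Course 5 against course 3 had 1 cytosolic gene higher, WARS, against 0.784% of all genes, and no synthetase gene lower, against 4.29%. The cytosolic medians of these 3 comparisons were 1.59, 1.15 and 0.38, and the mitochondrial medians were 0.35, 0.17 and 0.03.

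In the fitted tests, courses 3 and 5 formed 1 group, set against course 1 and against parental cells. They were joined because earlier results of these data showed them close to each other and course 1 apart. The difference between them was thus known to be small, and the adjusted p-values may be too low. The spread in this fit is the difference between courses 3 and 5 alone, with 1 residual degree of freedom, and the single course 1 and parental libraries are assumed to vary like them. Against course 1, edgeR's quasi-likelihood test called 12 of 18 cytosolic genes higher (Benjamini-Hochberg adjusted p under 0.05), where 10.2% of all 18612 genes were called higher. It called 0 cytosolic genes lower, where 11.9% of all genes were. At an unadjusted p under 0.05, which 34.3% of all genes had, the cytosolic genes numbered 14, the additional ones being KARS (higher) and DARS (lower), and DESeq2 (10.9% of all genes lower) and limma-voom (13.6%) also called 0 lower. WARS rose by 3.12 ± 0.30 on the log2 scale (SE, adjusted p = 7.06e-06), AARS by 2.59 ± 0.27 (adjusted p = 1.54e-05) and GARS by 2.49 ± 0.24 (adjusted p = 7.87e-06). IARS, MARS and SARS rose by 2.04, 1.99 and 1.87. YARS, NARS, LARS, TARS, EPRS and FARSB, the other 6 that rose, had log2 fold changes from 0.95 for FARSB to 1.76 for YARS. The 6 cytosolic genes that did not pass (DARS, FARSA, HARS, KARS, QARS and RARS) had fold changes from -0.45 to 0.54.

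Of the mitochondrial genes, 2 of 15 were called higher against course 1 and 1 was called lower, where 10.2% of all genes were called higher and 11.9% lower. The mitochondrial counts were thus near the shares of all genes. These shares include genes with low counts. With only genes at a mean of at least 5 CPM tested, 34.3% were called in either direction. MARS2 rose by 1.61 ± 0.21 (SE, edgeR adjusted p = 7.24e-05) and EARS2 by 0.65 ± 0.19 (adjusted p = 0.0206). HARS2 fell by 0.51 ± 0.17 (adjusted p = 0.0439), a call that was lost with total-count scaling (adjusted p = 0.0696), with DESeq2 (0.112) and without the parental library (0.0534). The other 12 had fold changes from -0.31 to 0.71. The median fold change was 1.39 in the cytosolic set, 0.26 in the mitochondrial set and 0.02 over all genes tested.

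Against parental cells the contrast between the sets was smaller. In courses 3 and 5, 4 of 18 cytosolic genes were called higher, where 4.10% of all genes were, and 1 was called lower, where 6.26% were. SARS rose by 1.29 ± 0.24 on the log2 scale (SE, edgeR adjusted p = 0.0022), WARS by 1.29 ± 0.26 (adjusted p = 0.00451), AARS by 1.16 ± 0.25 (adjusted p = 0.00671) and GARS by 0.76 ± 0.22 (adjusted p = 0.0361). Without course 1 in the fit the GARS call was lost (adjusted p = 0.0575). RARS fell by 0.56 ± 0.17 (adjusted p = 0.042), a call that was lost with DESeq2 (0.125) and without course 1 (0.0609). With no filter on low counts, and with limma-voom, 8 cytosolic genes were called higher, EPRS, IARS, LARS and TARS being added, where limma-voom called 5.30% of all genes higher. No mitochondrial gene was called by edgeR in either direction, 2 of 15 had an unadjusted p under 0.05, against 24.3% of all genes, DESeq2 called 0 (3.33% of all genes higher and 3.79% lower) and limma-voom called 1, SARS2, lower (8.06% of all genes). MARS2, at 0.45, had an adjusted p of 0.158. The median fold change was 0.54 in the cytosolic set, -0.05 in the mitochondrial set and within 0.01 of 0 over all genes.

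**Figure D2:**
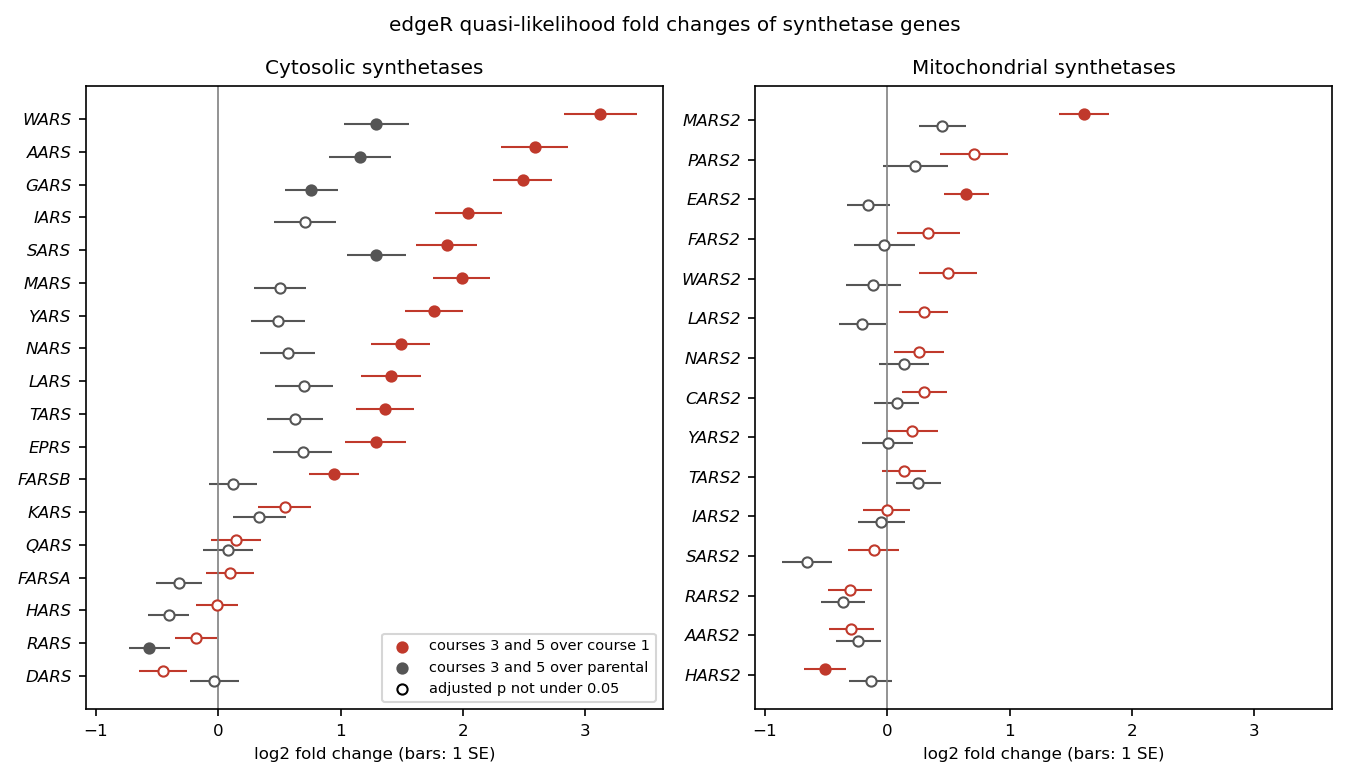
Log2 fold changes from edgeR's quasi-likelihood fit for DMSO courses 3 and 5 over course 1 (red) and over parental cells (grey), with bars of 1 SE, for 18 cytosolic genes (left) and 15 mitochondrial genes (right). Filled points had an adjusted p under 0.05. Over course 1, 12 cytosolic and 3 mitochondrial points are filled, and over parental cells 5 cytosolic points and no mitochondrial point are.

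The edgeR tests over all DMSO courses gave no calls. With all 3 DMSO libraries pooled against the parental library, edgeR called 0 of 18612 genes (0%), and 0 synthetase genes had an unadjusted p under 0.05, against 1045 genes in all. DESeq2 called 0 synthetase genes there (0.570% of all genes higher and 0.586% lower), and limma-voom called 0. For a slope over 0, 1, 3 and 5 courses edgeR also called 0 genes (0%). There 6 cytosolic and 0 mitochondrial genes had an unadjusted p under 0.05, against 15.8% of all genes, DESeq2 called 1 cytosolic gene higher (1.32% of all genes higher and 3.80% lower) and limma-voom called 0. Leaving out the parental library or course 1 gave calls throughout the genome. Leaving out course 3 or course 5 gave calls in at most 0.175% of all genes and in 0 synthetase genes. Without the parental library the slope called 13 cytosolic genes higher, with 22.8% of all genes called in either direction. Without course 1 the slope called 11 cytosolic genes higher (15.2% of all genes in either direction), and the pooled comparison called 3 (8.59%). Without course 1 the pooled comparison is the same fit as courses 3 and 5 against parental cells.

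Where both compartments have a listed enzyme for the same amino acid, the ratio of the 2 genes within a library does not depend on scaling between libraries. Of such pairs, 11 were compared. Left out were CARS with CARS2, EPRS with EARS2 and PARS2, and FARSA and FARSB with FARS2. In course 5 against course 1, EPRS stood at 2.77-fold, EARS2 at 1.64-fold and PARS2 at 1.75-fold. FARSB stood at 2.18-fold, FARSA at 1.10-fold and FARS2 at 1.38-fold, so the ratio of FARSA to FARS2 fell. In course 1, against parental cells, the cytosolic to mitochondrial ratio was lower in 10 of 11 pairs, with counting intervals that exclude 1, and the median change was 0.575-fold. The exception was SARS and SARS2, at 0.981-fold (interval 0.888 to 1.08). In course 5, against parental cells, the ratio was higher in 8 pairs and lower in 1, with a median change of 1.60-fold. In course 5, against course 1, it was higher in all 11, from 1.16-fold for RARS and RARS2 to 9.44-fold for AARS and AARS2, with a median of 2.69-fold.

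The pairs differed in how the 2 genes moved. In the alanine pair, AARS per kb of exon stood at 2.88 times AARS2 in parental cells, at 1.03 times in course 1 and at 9.74 times in course 5. WARS stood likewise at 4.60, 1.97 and 15.5 times WARS2 per kb. In these pairs the cytosolic gene moved several times as far as its partner, and not always in the same direction. In course 5 AARS and WARS stood at 2.64 and 3.04 times their parental levels, and AARS2 and WARS2 at 0.781 and 0.899 times. In the methionine pair the 2 genes moved together: MARS stood at 2.85 times MARS2 per kb in parental cells, at 2.28 times in course 1 and at 2.88 times in course 5, and the change of the ratio in course 5 against parental cells was 1.01-fold (interval 0.946 to 1.07). In the histidine pair they moved against each other in course 1, where HARS was at 0.761 times and HARS2 at 1.30 times its parental level. The threonine pair did so as well in course 1, with TARS at 0.601 times and TARS2 at 1.09 times. HARS and HARS2 are read from opposite strands, and their RefSeq starts lie 85 bases apart. The change of their ratio in course 5 against parental cells was 0.863-fold (interval 0.795 to 0.936). Among the 11 pairs compared, it was the 1 such change below 1 whose interval excluded 1.

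**Figure D3:**
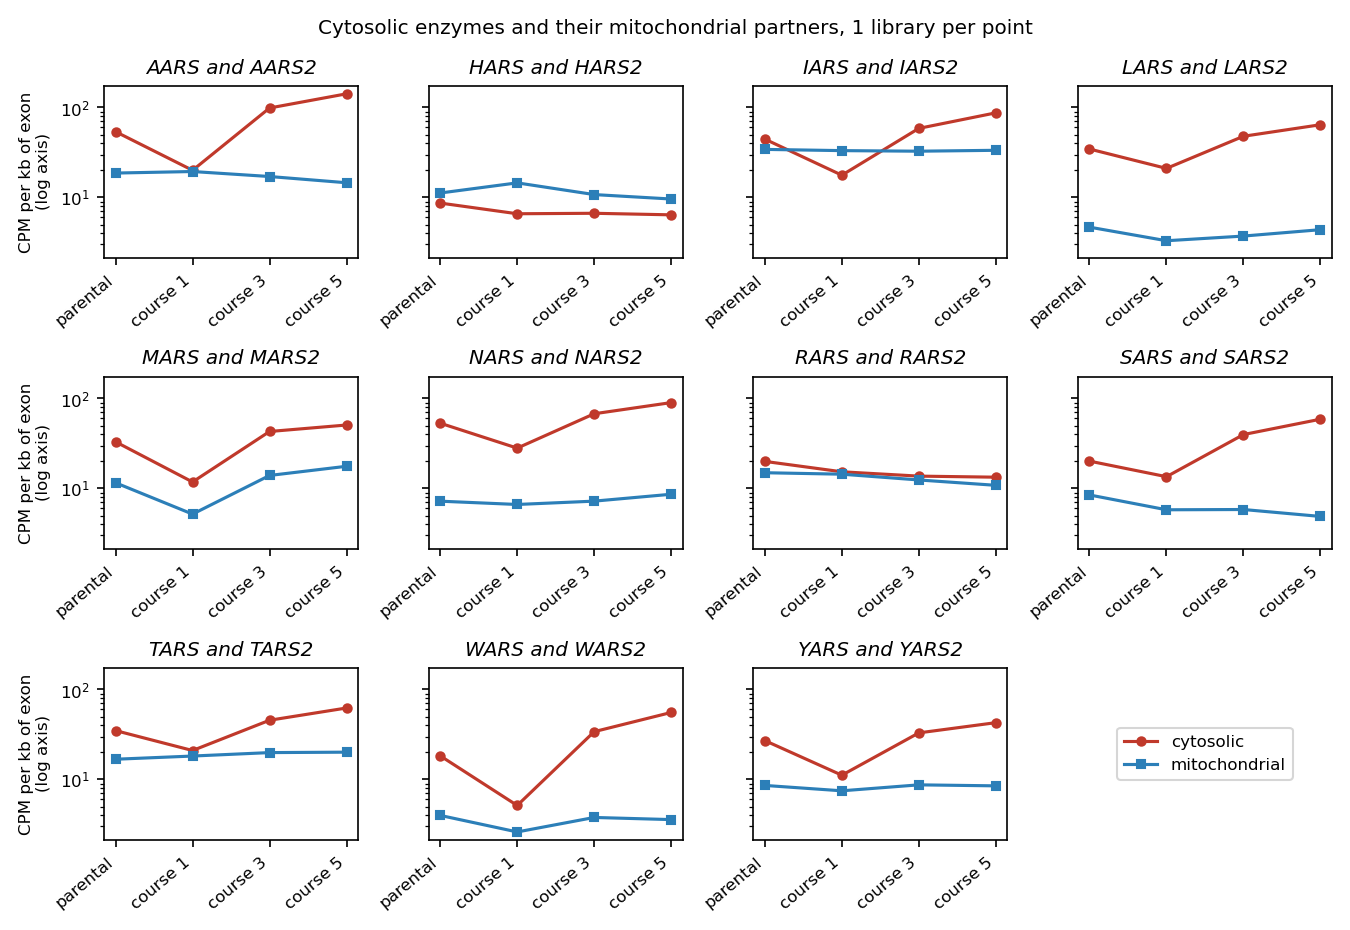
CPM per kb of exon (log axis) of the cytosolic gene (red) and its mitochondrial partner (blue) in parental cells and DMSO courses 1, 3 and 5. The 11 pairs compared are shown, with 1 library per point, and the pairs of CARS, EPRS, FARSA and FARSB are left out. The cytosolic to mitochondrial ratio is higher in course 5 than in course 1 in every panel, least so for RARS and RARS2 (1.16-fold) and most for AARS and AARS2 (9.44-fold). Per kb of exon HARS lies below HARS2 throughout. In counts, not divided by length, HARS is 1.62, 0.953, 1.30 and 1.40 times HARS2 from parental cells to course 5.

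Within the cytosolic set, the enzymes of the multisynthetase complex and the free enzymes both had members that moved and members that did not. Against course 1, 4 of 8 complex enzymes (IARS, MARS, LARS and EPRS) were called higher in courses 3 and 5, with a median log2 fold change of 0.91. Of the free enzymes, 8 of the 10 measured were, with a median of 1.63. The difference between these groups was not tested. The scaffold genes were split as well: AIMP2 had 34.9, 15.2, 29.5 and 37.5 CPM from parental cells to course 5, EEF1E1 had 32.2, 14.3, 25.3 and 35.7 CPM, and AIMP1 had 76.3, 82.3, 82.5 and 94.2 CPM. AIMP2 and EEF1E1 rose against course 1 (log2 fold changes 1.14 and 1.09, edgeR adjusted p = 0.00123 and 0.00328), with course 5 near the parental level, and AIMP1 did not pass (0.10, adjusted p = 0.747). By structural class, 7 of 15 measured class I enzymes were called higher, as were 6 of 17 class II enzymes, with 1 called lower. EPRS, which has an enzyme of each class, was counted in neither. Against course 1, 10.2% of all genes were called higher and 11.9% lower.

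The calls were set beside the promoter element, with no test of the difference. The 6 measured cytosolic genes with TGATGNAA (AARS, GARS, IARS, MARS, NARS and TARS) were all called higher in courses 3 and 5 against course 1, with log2 fold changes from 1.36 to 2.59 and a median of 2.02. Of the 9 without a match, 4 were called higher (EPRS, FARSB, SARS and WARS), and the median was 0.54. WARS, the gene that rose most, was among these 9. Of the 3 cytosolic genes that are not in the promoter table, LARS and YARS were called higher and DARS was not. YARS2, the mitochondrial gene with a match, had a fold change of 0.20 and was not called, and MARS2 and EARS2 were called with no match.

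Genes that work beside the synthetases were read from lists of named members. Of 15 amino acid response genes, 13 were called higher in courses 3 and 5 against course 1 (10.2% of all genes), with a median log2 fold change of 2.37, and 12 were called higher against parental cells (4.10% of all genes). ASNS, asparagine synthetase, had 9.24 CPM in parental cells and 3.02, 22.9 and 25.2 CPM in courses 1, 3 and 5, the same order as the 13 cytosolic synthetase genes above. The ATF4 transcript itself had 458, 403, 530 and 579 CPM in the same order and did not pass (log2 fold change 0.46, edgeR adjusted p = 0.161). DDIT3, the other of the 15 that did not pass against course 1, lies opposite MARS on the other strand and had 21.1 CPM in parental cells and 33.6, 31.5 and 35.2 CPM in courses 1, 3 and 5. Of 18 genes of tRNA maturation and quality control, 10 were called higher and 1 lower against course 1, where 10.2% of all genes were higher and 11.9% lower, with a median of 0.57. Among them XPOT, the nuclear export receptor for tRNA, had 251, 239, 366 and 455 CPM from parental cells to course 5 (0.78, adjusted p = 0.022). Of 15 genes of mitochondrial charging and translation, 4 were called higher (QRSL1, TUFM, GFM1 and MRPL12) and 0 lower, against the same shares of all genes, with a median of 0.36, which lies between the medians of the mitochondrial and the cytosolic synthetases.

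**Figure D4:**
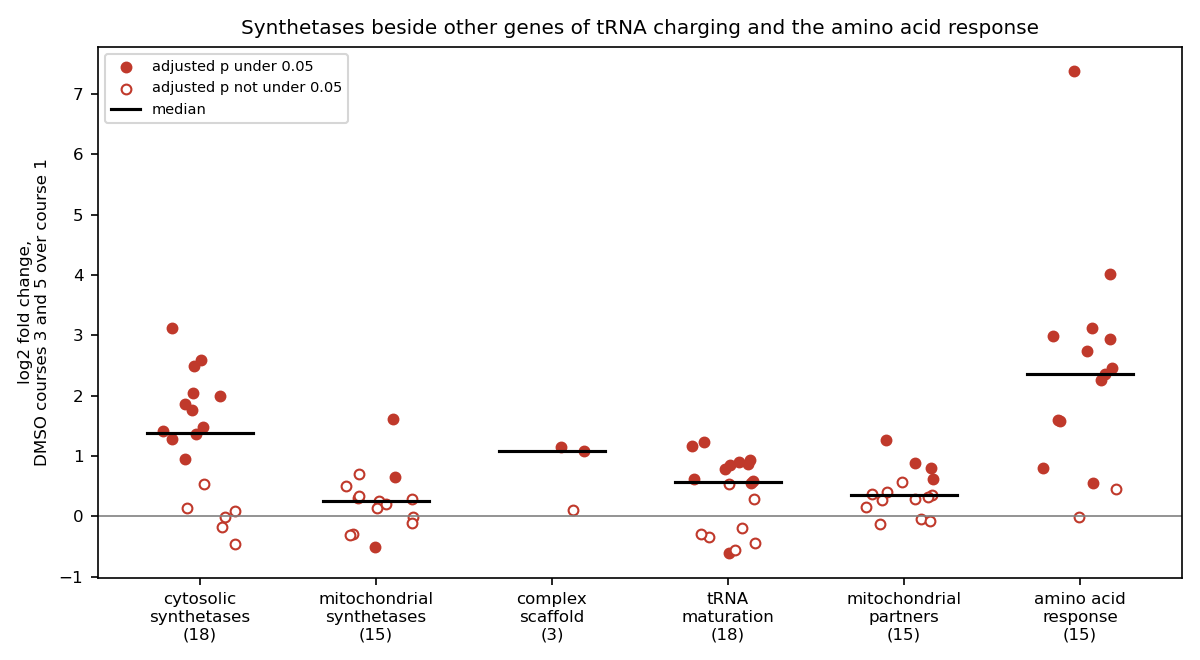
Log2 fold change of DMSO courses 3 and 5 over course 1 (edgeR quasi-likelihood fit) for single genes of 6 lists, with the number of genes under each name and a line at the median. Filled points had an adjusted p under 0.05. The medians are 1.39 for cytosolic synthetases, 0.26 for mitochondrial synthetases, 0.57 for tRNA maturation, 0.36 for mitochondrial partners and 2.37 for amino acid response genes.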

How the data were processed

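The authors deposited raw read counts per Ensembl gene. The submitters' processing notes list TopHat2 2.0.11, HTSeq 0.6p1, FastQC 0.11.5 and the genome build hg19. GENCODE release 29, to which the 58735 gene IDs all matched, is on GRCh38, so it is uncertain which build was counted and no coordinates are taken from the counts. Names of the deposited files give reverse-stranded counting. The 5 summary rows (24.6% to 29.8% of a library, highest in course 5) were left out, and reads with several alignments are in no gene.

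Counts were scaled by TMM to CPM in R 4.3.3 (edgeR 4.0.16, limma 3.58.1, DESeq2 1.42.0). filterByExpr (minimum count 10, total 15) kept 18612 genes. The quasi-likelihood test of edgeR was used, adjusted over all of them by Benjamini-Hochberg, in 4 contrasts: 3 DMSO libraries pooled, a slope over courses, and courses 3 and 5 against course 1 and against parental. With 1 library used for each state, p-values reflect no more than the spread among these libraries, which may be technical. Ratios of single libraries carry exact binomial 95% intervals, and ratios of pairs exact conditional ones, for counting error only. The functions were tested on simulated data.

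The members, lists and contrasts were chosen with earlier results of these data known. Values are given in full for the 6 largest and 3 smallest ratios of course 5 to course 1 in each set, for genes called against their set's median, for GARS, KARS and genes under 5 CPM. Protein sequences of the partners were not analysed here.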

Additional observations from a re-analysis of the deposited data

How the results depend on the processing

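Of the results recomputed under other settings, none changed sign where it was called. Leaving out 1 library moved the pooled count of cytosolic genes called higher between 0 and 3, the slope counts between 0 and 13 higher and 0 and 1 lower (cytosolic) and between 0 and 1 in each direction (mitochondrial), the 1 mitochondrial gene lower against course 1 to 0, and the 1 cytosolic gene lower against parental cells to 0. DESeq2 called 1 cytosolic gene in the slope, 0 mitochondrial genes lower against course 1 and 0 cytosolic genes lower against parental cells. Against parental cells 8 cytosolic genes were called higher with no filter on low counts and with limma-voom. There 1 mitochondrial gene, SARS2, was called lower with no filter, limma-voom, DESeq2 size factors or total counts. Total gene counts shifted all genes by -0.11, -0.08 and -0.04 (log2) in courses 1, 3 and 5. They gave cytosolic medians of -0.84, 0.29 and 0.67 against parental cells and 1.66 for course 5 against course 1, a mitochondrial median of -0.34 in course 1, and 0 mitochondrial genes lower against course 1 in the fit. They set apart 6 mitochondrial genes lower in course 1, 1 gene of each set lower in course 3, 1 cytosolic gene lower and 0 mitochondrial genes higher in course 5, 0 mitochondrial genes lower in course 5 against course 1, and 3 cytosolic genes higher in course 5 against course 3, where DESeq2 size factors gave 2. Means in place of medians gave cytosolic values of -0.81, 0.26 and 0.60 in courses 1, 3 and 5 against parental cells, 1.07 and 1.40 in courses 3 and 5 against course 1 and 0.34 in course 5 against course 3. The cytosolic minus mitochondrial difference was then 0.34 and 0.64 in courses 3 and 5 against parental cells and 0.84 and 1.14 against course 1. At 2-fold, the genes apart were 6 cytosolic and 1 mitochondrial lower in course 1, 0 cytosolic higher in course 3, 3 cytosolic and 0 mitochondrial higher and 0 mitochondrial lower in course 5, 1 mitochondrial higher in courses 3 and 5 against course 1 with 0 lower, and 0 in course 5 against course 3. Shares of all genes at 2-fold, under the other scalings or with no filter are not given here, so these counts have no background. The fits of courses 3 and 5 could not be made without either of them, since no residual degree of freedom would be left. No paired analysis was possible because 1 library was used for each state and the labels give the DMSO libraries no shared replicate numbers. Depth limits PARS2 and FARS2 most, whose counting intervals are the widest. CARS, at or near the floor in every library, is left unread, and why its counts are so low was not tested.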
